A study of Mus musculus with 12 samples.

Results

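The genes described here encode the translocases of the inner (TIM) and outer (TOM) mitochondrial membrane and their close relatives, and their transcripts were measured by RNA-seq in the prefrontal cortex (PFC) of mice treated with saline or cocaine. They were taken as the rows whose gene symbol begins with Timm or Tomm followed by a digit and whose status in the deposited tables was OK. This gave 20 genes on 21 rows at each time point. Rows of any gene with that status numbered 16012 (2 h), 17143 (24 h) and 16769 (7 d). Timm9 held 2 of the rows, which list the same span.

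Male C57BL/6 mice (C57BL/6 J in the methods) aged 10 weeks received saline or cocaine at 20 mg/kg on each of 14 days, and the PFC was taken 2 h, 24 h or 7 d after the final dose. Each of the 6 groups (saline or cocaine at each time) had 2 libraries, and each library pooled 5 animals, so that 12 libraries came from 60 mice. For each gene the tables give 1 FPKM (fragments mapped to the gene, scaled by transcript length and by library size) per group, which the authors pooled over the 2 libraries. No spread between libraries can therefore be computed, no test was run, and every difference given here is a difference between pooled values with no replicate check. The read depth behind each value is unknown from these tables. The tables of the 3 time points were normalized separately, which applies to every level that is set across times in the text.

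Nearly all mitochondrial proteins are encoded in the nucleus, made in the cytosol and carried across the membranes by these complexes. Precursors are recognized by receptors of the TOM complex and pass its channel. They are then handed to TIM23, which serves proteins with a cleavable presequence, or by the small TIM chaperones of the intermembrane space to TIM22, which inserts the carriers of the inner membrane. Neurons depend on this supply because synapses rely on mitochondrial ATP. Levels of a protein and of its transcript can differ, and only transcripts were measured.

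The median of the TIM and TOM rows lay close to the saline level at 2 h and 24 h, and below it at 7 d. A gene is called lower or higher here when the ratio of FPKM + 1 in cocaine to FPKM + 1 in saline passed 1.2-fold, which is 0.26 on the log2 scale. Every log2 difference below is on this scale, which understates the change of genes with a low FPKM. At 2 h, 0 of the 21 rows were lower and 0 were higher, while 6.8% of all rows were lower and 8.07% were higher. At 24 h, 0 were lower and 2 were higher, beside 4.6% and 4.85% of all rows. At 7 d, 6 of 21 (28.6%) were lower and 0 were higher, whereas 9.65% of all rows were lower and 6.41% were higher. In the same order of times, the 21 rows had median log2 differences of -0.00, -0.03 and -0.20, and all rows 0.01, 0.01 and -0.00. At 7 d, 20 of the 21 rows were below 0, beside 51.1% of all rows. At 2 h and at 24 h, 11 of the 21 were below 0. In bulk tissue, fewer cells of a type and less RNA per cell cannot be told apart, so a lower FPKM may be either.

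**Figure D1:**
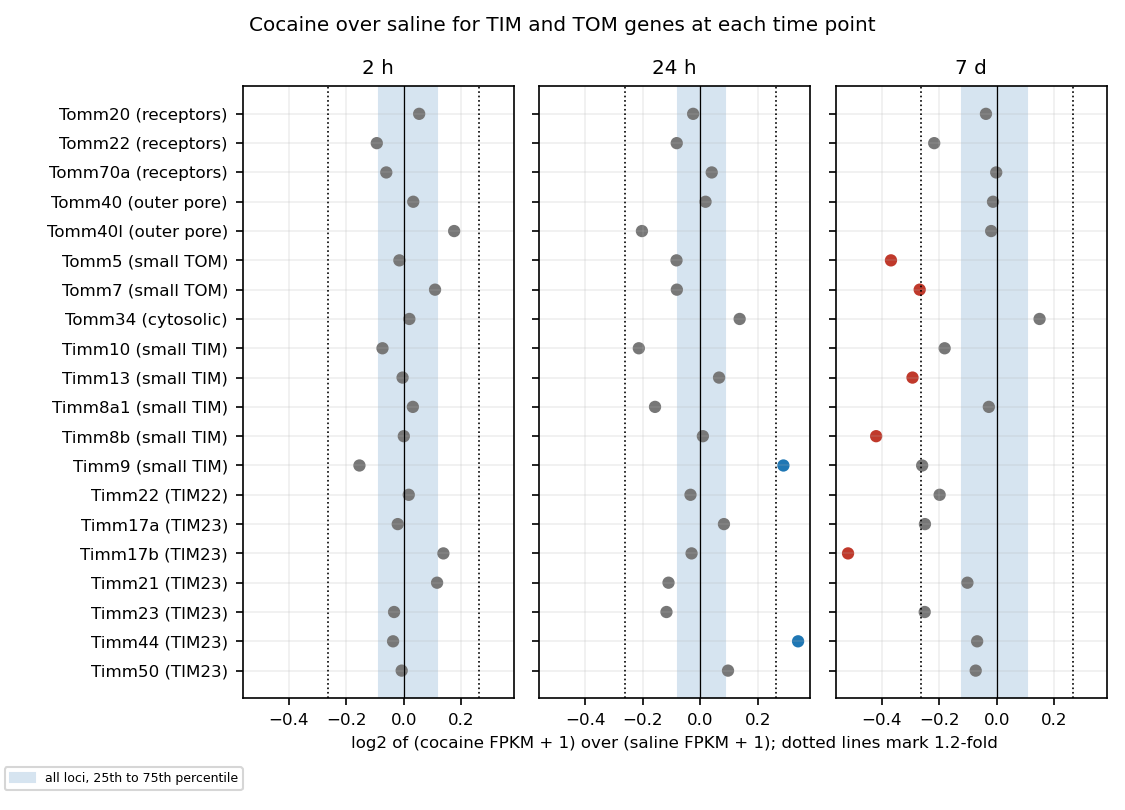
Log2 difference between cocaine and saline (FPKM + 1) of the 20 TIM and TOM genes, 1 panel per time point and 1 point per gene, in red where lower and in blue where higher past 1.2-fold (dotted lines); the shaded band holds the middle of all rows, from the 25th to the 75th percentile. The points lie around 0 at 2 h, Timm9 and Timm44 are past the upper line at 24 h, and at 7 d Tomm34 is the only gene above 0; the second Timm9 row is not drawn.

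The small TIM proteins escort hydrophobic precursors across the intermembrane space. Timm8b, which pairs with Timm13 in such a chaperone, had the highest FPKM of all the TIM and TOM genes. The saline groups had 148.3 FPKM (2 h), 133.9 (24 h) and 183.5 (7 d), and the cocaine groups 148.3, 134.7 and 136.9. The 7 d saline value stood above the other 5, and the 7 d cocaine value lay among them. The log2 differences were 0.00, 0.01 and -0.42. Timm13 showed 42.69, 45.65 and 53.95 FPKM in the saline groups from 2 h to 7 d, against 42.56, 47.8 and 43.83 in the cocaine groups. As for Timm8b, the saline group at 7 d was above the rest, and the log2 difference there was -0.29.

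Timm9 and Timm10 form the chaperone that carries precursors to TIM22. Timm9 stood at 18.12, 14.06 and 18.82 FPKM in saline (2 h, 24 h, 7 d) and 16.18, 17.4 and 15.55 FPKM in cocaine. Its log2 difference was -0.15 at 2 h, 0.29 at 24 h, where it was called higher, and -0.26 at 7 d, just inside the threshold. The 24 h saline value was the lowest of the 6, and the 24 h cocaine value lay between the saline values at 2 h and 24 h. The second Timm9 row was low throughout, between 1.318 and 2.024 FPKM, and was called lower at 7 d, from 2.024 to 1.318 (log2 difference -0.38). Timm10 had 28.49, 25.35 and 31.05 FPKM in saline at the successive times, and 27.02, 21.72 and 27.25 in cocaine, and its cocaine value was below saline each time without passing the threshold (-0.07, -0.21 and -0.18). Timm8a1, whose human counterpart is mutated in deafness-dystonia syndrome, ranged only from 6.302 to 7.601 FPKM, with log2 differences of 0.03, -0.16 and -0.03. Of the 5 small TIM genes, 2 were thus lower at 7 d, and the median of the 5 was -0.26.

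TIM23 admits presequence proteins to the matrix and the inner membrane. Timm17a and Timm17b are alternative channel subunits. Timm17b showed 9.385, 9.948 and 13.21 FPKM in the saline groups from 2 h to 7 d, against 10.43, 9.718 and 8.928 in the cocaine groups. At 7 d its saline value was the highest of the 6 and its cocaine value the lowest, and the log2 difference of -0.52 was the furthest from 0 of any TIM or TOM gene at any time. Its paralog Timm17a stood at 49.04, 45.57 and 51.48 FPKM in saline (2 h, 24 h, 7 d) and 48.32, 48.29 and 43.13 FPKM in cocaine. The 7 d values were again the highest and the lowest of the 6, with a log2 difference of -0.25 that stayed inside the threshold. The channel itself, Timm23, had 39.09, 41.85 and 44.15 FPKM in saline at the successive times, and 38.16, 38.49 and 36.94 in cocaine (-0.03, -0.12 and -0.25), with the same order at 7 d.

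The other TIM23 subunits lay nearer to saline at 7 d. Timm44, which tethers the Hsp70 motor to the channel on the matrix side, showed 14, 12.8 and 13.83 FPKM in the saline groups from 2 h to 7 d, against 13.62, 16.46 and 13.14 in the cocaine groups. Its cocaine value at 24 h stood above the other 5, and the log2 difference there (0.34) was the furthest above 0 of any TIM or TOM gene at any time. Timm50, the presequence receptor of TIM23, differed by -0.01, 0.10 and -0.07, with values between 15.44 and 18.12 FPKM. Timm21, which links TIM23 to the TOM complex, was the lowest of the 20 genes, at 3.696 to 5.107 FPKM, and differed by 0.12, -0.11 and -0.10. Timm22, the channel of the carrier translocase, stood at 17.38, 17.76 and 18.96 FPKM in saline (2 h, 24 h, 7 d) and 17.6, 17.32 and 16.39 FPKM in cocaine, with a log2 difference of -0.20 at 7 d. Over the 6 genes of TIM23 the median at 7 d was -0.18, and 1 of them was lower.

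In the TOM complex, the small subunits and the pore differed in their 7 d values. Tomm5 and Tomm7 are small subunits that sit around the channel. Tomm5 had 39.81, 41.92 and 54.06 FPKM in saline at the successive times, and 39.38, 39.53 and 41.65 in cocaine. The 7 d saline value stood alone and the other 5 were close together (log2 difference at 7 d, -0.37). Tomm7 showed 49.42, 39.65 and 59.18 FPKM in the saline groups from 2 h to 7 d, against 53.37, 37.41 and 48.96 in the cocaine groups. It varied more between times than between treatments, and its 7 d difference of -0.27 was only just past the threshold.

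Tomm40, the channel of the outer membrane, stood at 35.67, 36.74 and 36.29 FPKM in saline (2 h, 24 h, 7 d) and 36.52, 37.21 and 35.93 FPKM in cocaine. It hardly varied, with log2 differences of 0.03, 0.02 and -0.01. Its paralog Tomm40l had 23.62, 28.14 and 32.78 FPKM in saline at the successive times, and 26.8, 24.32 and 32.32 in cocaine. Both of its 7 d values were above its 4 earlier ones, and the log2 difference between them was -0.02. The presequence receptor Tomm20 (60.88 to 65.78 FPKM over the 6 groups) and the carrier receptor Tomm70a (46.52 to 49.36 FPKM) had 7 d differences of -0.04 and -0.00. Tomm22, the central receptor and organizer of the complex, had 71.73 and 61.52 FPKM at 7 d, a log2 difference of -0.22, after 63.91 and 59.83 at 2 h and 58.16 and 54.89 at 24 h.

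Tomm34 is named with this family but is a cytosolic cochaperone of Hsp70 and Hsp90. It showed 35, 33.94 and 31.76 FPKM in the saline groups from 2 h to 7 d, against 35.49, 37.41 and 35.3 in the cocaine groups. It was the only one of the 20 genes with a positive log2 difference at 7 d (0.15) and the only one whose 7 d saline value was the lowest of its 6. The class medians at 7 d thus ran from -0.32 for the 2 small TOM subunits through -0.26 for the small TIM genes, -0.20 for Timm22 and -0.18 for TIM23 to -0.04 for the 3 receptors, -0.02 for the 2 pore genes and 0.15 for Tomm34. With 1 to 6 genes in a class and no replicate values, the order of the classes has no test.

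The level of the saline group at 7 d entered most of these differences. That group held the highest FPKM of the 6 for 15 of the 21 rows, and over the 13779 genes listed in all 3 tables it did so for 24.8%. The cocaine group at 24 h was highest for 5 rows (Timm44, Timm50, Tomm70a, Tomm40 and Tomm34; 17% of all genes), and the cocaine group at 2 h for Tomm20 alone (23.4% of all genes). The lowest value of the 6 was spread over all groups. It was in the 7 d cocaine group for 6 rows (17% of all genes), the 2 h and 24 h cocaine groups for 4 rows each (19.1% and 10.3%), the 2 h and 24 h saline groups for 3 rows each (15.1% and 9.99%) and the 7 d saline group for 1 row (28.5%). The summed FPKM of the 20 genes was 752.1, 726.8 and 854.2 in the successive saline groups, and 752.6, 724.2 and 734 in the cocaine groups. The 7 d saline sum stood apart from the other 5, which include the 7 d cocaine sum.

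Against the mean of the earlier saline groups, the 7 d saline group was higher for 17 of the 20 genes, with a median log2 difference of 0.16, where the median over all genes was -0.01 and 46.7% were above 0. Against the earlier cocaine groups, the 7 d cocaine group was higher for 7 of the 20, with a median of -0.04, where the median over all genes was also -0.04 to 2 decimals and 39.4% were above 0. The 3 saline values of a gene spanned a median of 0.23 on the log2 scale (0.03 for Tomm70a to 0.57 for Tomm7), and the 3 cocaine values 0.16 (0.05 for Tomm40 to 0.50 for Tomm7). The difference between cocaine and saline was larger than the span of the 3 saline values for 2 of the 20 genes at 2 h, 4 at 24 h and 5 at 7 d. By the same measure 25.7%, 17.7% and 23.9% of all genes had the larger difference, so the counts at 24 h and 7 d were near the background. The 5 genes at 7 d were Timm17a, Timm17b, Timm22, Timm23 and Tomm34. For Timm17b the difference was -0.52 and the span 0.45, whereas for Timm8b the difference was -0.42 and the span 0.45. These spans hold any change between the times and between the normalizations of the tables.

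**Figure D2:**
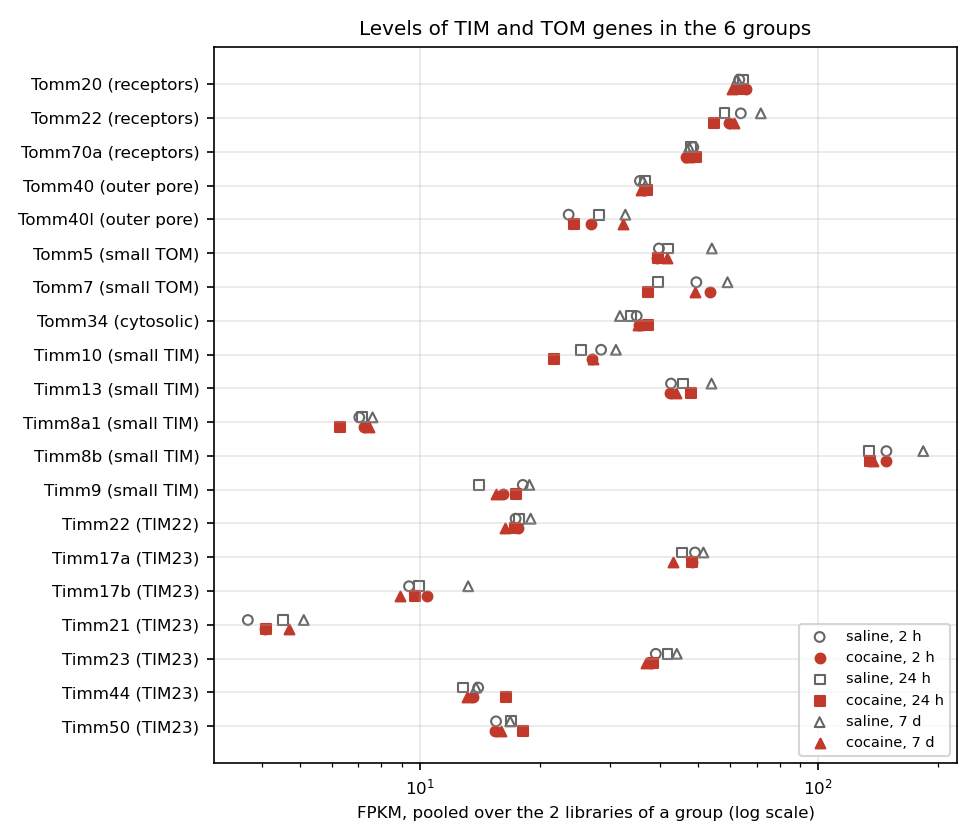
FPKM of the 20 TIM and TOM genes in the 6 groups (horizontal log axis; open grey symbols, saline; filled red symbols, cocaine; circles, squares and triangles for 2 h, 24 h and 7 d), each symbol 1 value pooled over 2 libraries. The open triangle of saline at 7 d stands to the right of the other symbols for Timm8b, Timm13, Timm17b, Tomm5 and Tomm7, and the 6 symbols nearly coincide for Tomm40 and Tomm70a.

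The members that were lower at 7 d also tended to have short transcripts. The length of the longest protein-coding transcript of each symbol was taken from the GENCODE annotation of mouse, and all 20 genes had one. Their median length was 1362 nt (527 nt for Timm8b to 5886 nt for Tomm70a), beside 3026 nt over all genes compared. Of the 10 genes at or under the median length of the family, 4 were lower at 7 d (Timm8b, Tomm5, Tomm7 and Timm13) and their median was -0.26. Of the 10 longer genes, 1 was lower (Timm17b, 2381 nt) and the median was -0.03. The shares of all genes of like length that were lower are not given here, so these counts have no background beside them. Short genes of all kinds also lay below 0 at 7 d. In 20 groups by length, their median was -0.21 in the shortest, -0.11 at 1197 to 1453 nt and 0.12 in the longest. Spearman's rho between length and the 7 d difference was 0.60 over the 20 genes and 0.49 over 11264 genes of all kinds, and at 24 h it was 0.15 and 0.09. At 2 h rho was 0.41 over the 20 genes and 0.16 over all genes. These are correlations across genes that share the same pooled libraries, and are given as descriptions.

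The relation to length stood mostly on the saline side at 7 d. Between the 7 d saline group and the earlier saline groups rho was -0.41 for the 20 genes and -0.51 for all genes, and between the cocaine groups it was -0.08 and -0.17. In 20 groups of genes ordered by length, the median shift of 7 d saline ran from 0.22 in the shortest to -0.16 in the longest, and that of 7 d cocaine from 0.01 to -0.09. When the median 7 d difference of genes of like length was taken out, the median of the 21 rows went from -0.20 to -0.08 and 1 row instead of 6 was lower. That row was Timm17b, at -0.49. Timm8b then stood at -0.21, Timm13 at -0.18, Tomm5 at -0.16 and Tomm7 at -0.11. The share of all rows that were lower after this step is not given here, so the count of 1 row has no background beside it. The part of transcript length in the 7 d differences was not tested further.

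**Figure D3:**
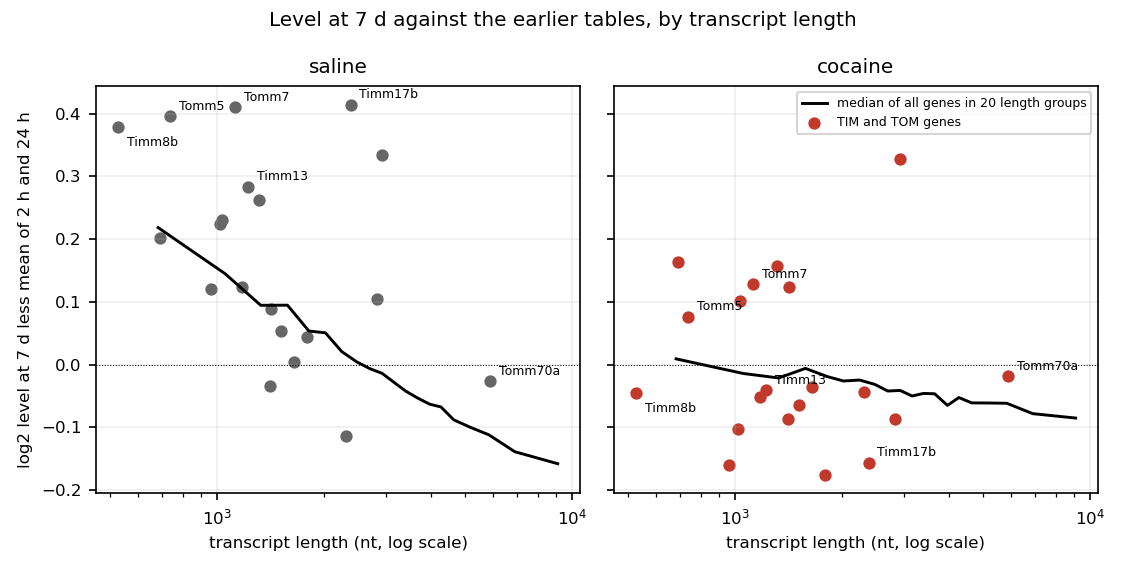
Log2 difference (FPKM + 1) between the 7 d group and the mean of the 2 h and 24 h groups of the same treatment, against transcript length (nt, log axis), for saline (left) and cocaine (right); points are the 20 TIM and TOM genes and the line is the median of all genes in 20 groups of length. The saline line descends from 0.22 to -0.16 and most points follow it or lie above it, with Timm17b and Tomm7 among the highest, while the cocaine line stays between 0.01 and -0.09.

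The genes that were lower at 7 d are spread over the genome, and their promoters are shown to let the start regions of such members be compared. On GRCm38.p6, RefSeq places Timm8b at chr9:50603901-50605320, Timm13 at chr10:80899450-80900969, Tomm5 at chr4:45105209-45108113, Tomm7 at chr5:23838944-23844145 and Timm17b at chrX:7899336-7907652. The table of promoter windows, 250 bases before to 50 bases after a gene's start, held 17 of the 20 genes, but not Tomm7, Tomm40l and Timm21. Cores of the motifs of NRF1 and of ETS factors such as GABPA, both known regulators of nuclear genes for mitochondria, were searched on both strands as CGCATGCG and CCGGAAG, and no window of these genes held both. The 17 genes had 19 windows. The NRF1 core was in 1 of the 19 (that of Timm13), beside 1.87% of 32851 windows. The ETS core was in 7 of the 19 windows, beside 8.86% of all windows. These 7 belonged to 6 genes (Timm8b, Timm10, Timm23, Tomm22, Tomm34 and Tomm70a). The 6 genes with the ETS core included Timm8b, which was lower at 7 d, and also Tomm70a and Tomm34, with 7 d differences of -0.00 and 0.15. Of the 4 members that were lower and have a window, the RefSeq stretch before the start is printed 5′ to 3′ on the gene's strand, ending at the base before the start or where a neighbouring gene begins, with a core in capitals. Timm8b lies at chr9:50603850-50603900, plus strand (51 bases up to the divergent Sdhd gene), Timm17b at chrX:7899270-7899335, plus strand (66 bases up to Pqbp1), Timm13 at chr10:80900970-80901219, minus strand, and Tomm5 at chr4:45108114-45108363, minus strand.
Timm8b: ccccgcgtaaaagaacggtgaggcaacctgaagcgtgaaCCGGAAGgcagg
Timm17b: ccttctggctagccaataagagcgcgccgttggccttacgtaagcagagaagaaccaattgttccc
Timm13: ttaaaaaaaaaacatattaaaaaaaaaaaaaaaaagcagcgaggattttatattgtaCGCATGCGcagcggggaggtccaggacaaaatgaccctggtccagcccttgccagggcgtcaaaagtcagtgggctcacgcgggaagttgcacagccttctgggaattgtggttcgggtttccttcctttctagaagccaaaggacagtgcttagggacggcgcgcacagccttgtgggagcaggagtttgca
Tomm5: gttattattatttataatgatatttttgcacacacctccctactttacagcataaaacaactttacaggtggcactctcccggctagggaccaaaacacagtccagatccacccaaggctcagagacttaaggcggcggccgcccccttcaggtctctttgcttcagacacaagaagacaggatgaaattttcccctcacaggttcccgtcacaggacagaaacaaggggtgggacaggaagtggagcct
Counted from the start, the ETS core of Timm8b begins at base -12 and the NRF1 core of Timm13 at base -193, and the stretches of Timm17b and Tomm5 hold neither core. A match of letters is no evidence of binding. Sdhd, the neighbour of Timm8b, encodes a subunit of respiratory complex II.

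Several members share sequence or position with another gene, which bears on how reads were assigned. By RefSeq, 8 of the 20 genes overlap another gene, among them Timm8b (81 bases with Nkapd1), Timm13 (46 bases with Tmprss9), Timm50 (2207 bases with the noncoding Gm51445) and Tomm40l (1044 bases with Nr1i3 and 951 bases with Apoa2). The library kit named in the methods does not mark the strand, so reads in such stretches cannot be given to a gene by strand. By the methods, reads that mapped to more than 1 place were not used. Reads that match a paralog (such as Timm17a and Timm17b, or Tomm40 and Tomm40l) or a processed copy equally well may thus be lost. At 24 h the table also listed second rows of Timm23 and Timm10 with too little signal to be tested, all under 0.5 FPKM.

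Members of the complexes that the naming rule missed had values in the range of the rest. The small subunit Tomm6 is listed in a row shared with Gm21981 and Prickle4, which had 72.98 and 63.54 FPKM at 7 d (-0.20). Timm10b, a small TIM of the TIM22 complex, shares a row with Dnhd1, which had 35.46 and 29.41 FPKM at 7 d (-0.26). The row of 1810026J23Rik, a RefSeq synonym of the TIM22 subunit Timm29, had 16.59 and 16.64 FPKM at 7 d (0.00). In shared rows the FPKM cannot be divided among the genes.

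The other genes of mitochondrial protein import and of the inner membrane architecture, taken as 8 lists, were also called lower mainly at 7 d. At 2 h, 1 of 39 was lower (the outer membrane assembly factor Mtx2, from 18.35 to 14.49 FPKM, log2 difference -0.32) and 0 were higher, beside the 6.8% and 8.07% of all rows, but 29 of 39 were below 0 (45.7% of all rows) with a median of -0.05. At 24 h, 0 of 39 passed in either direction, 19 were below 0 (48.1% of all rows) and the median was 0.00. At 7 d, 11 of 40 were lower and 0 were higher, beside 9.65% and 6.41% of all rows, 35 were below 0 (51.1% of all rows) and the median was -0.15. The lists of the presequence import motor, which works next to TIM23, and of the MICOS complex, which holds the cristae junctions, had 4 lower genes of 7 each.

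In the motor list these were Romo1, a small inner membrane protein, from 95.67 to 67.8 FPKM (-0.49), the J-protein relatives Dnajc15, from 46.7 to 33.78 (-0.46), and Dnajc19, from 31.19 to 22.62 (-0.45), and the J-like regulator Pam16, from 43.02 to 33.41 (-0.36). At 2 h and 24 h the saline values were 70.75 and 82.15 FPKM for Romo1, 34.44 and 36.49 for Dnajc15, and 25.78 and 24.72 for Dnajc19. The cocaine values were 76.45 and 83.66, 37.55 and 37.32, and 24.2 and 24.1. For each of these, the 7 d saline value was the highest and the 7 d cocaine value the lowest. Pam16 had status OK as a row of its own at 7 d alone. The Hsp70 of the motor, Hspa9, had 66.47 and 64.75 FPKM at 7 d (-0.04). Its nucleotide exchange factors Grpel1 (10.16 and 9.018 FPKM, -0.16) and Grpel2 (3.672 and 3.281 FPKM, -0.13) did not pass the threshold either, so 4 of the 7 genes of the motor list were lower. In the MICOS list, Minos1 had 135.5 and 103.1 FPKM (-0.39), 2410015M20Rik 65.48 and 52.16 (-0.32), Apoo 29.05 and 23.08 (-0.32) and Chchd6 70.06 and 58.21 (-0.26). Chchd6 was only just past the threshold. The summed FPKM of the MICOS list was 310.1, 321.3 and 383 in the successive saline groups, and 301, 313.3 and 313 in the cocaine groups. The 7 d saline sum was thus above the rest. The other 3 lower genes were Immp1l of the presequence processing list (20.03 and 15.54 FPKM at 7 d, -0.35), the sorting and assembly gene Mtx1 (55.63 and 45.01, -0.30) and the matrix cochaperonin Hspe1 (82.29 and 66.73, -0.30).

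None of the 3 disulfide relay genes, the 2 insertion genes or the 7 genes for proteases and PINK1 passed the threshold at 7 d, with medians of -0.12, -0.10 and -0.13. For the motor list the median at 7 d was -0.36, for MICOS -0.26, for presequence processing -0.17, for outer membrane assembly -0.12 and for the matrix chaperones -0.13. The medians of these lists at 24 h lay between -0.05 and 0.04. The relation to transcript length was not examined for these lists.

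**Figure D4:**
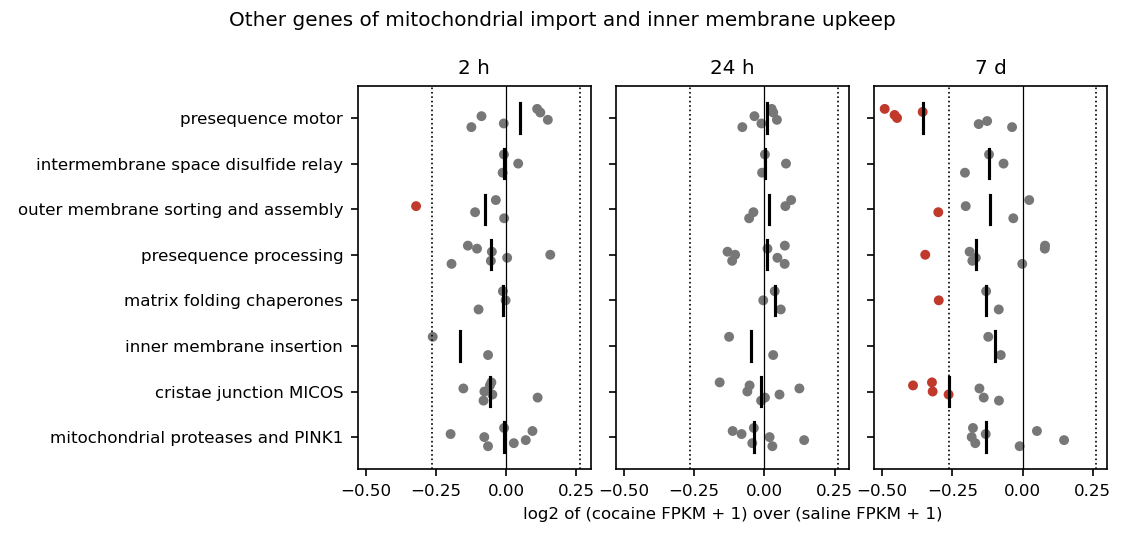
Log2 difference between cocaine and saline (FPKM + 1) for the genes of the 8 other lists, 1 panel per time point; points are genes (red where lower past 1.2-fold, dotted lines), placed apart vertically only for legibility, and the vertical bar is the median of the list. At 7 d the bars of the presequence motor (-0.36) and MICOS (-0.26) stand furthest to the left.

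Marker lists were read in the same tables to see what the tissue held. All 5 neuronal markers with a value in every table summed to between 2090 and 2220 FPKM in the 6 groups. The sums were 548 to 694 FPKM for 4 oligodendrocyte and 313 to 367 FPKM for 5 astrocyte markers. They were 128 to 143 FPKM for the 6 microglial and 78 to 100 FPKM for the 6 endothelial markers. A sum follows its most abundant genes, so these sums do not give the shares of the cell types. At 7 d, where 6 of the 21 TIM and TOM rows were lower, the median log2 difference was 0.05 for neuronal, 0.15 for astrocyte, -0.01 for oligodendrocyte, 0.01 for microglial and 0.16 for endothelial markers. At 24 h these medians were, in the same order, 0.01, -0.22, -0.22, -0.12 and -0.08. The 5 red cell markers had medians of 0.64, 0.08 and 0.20 at the successive times, and summed to between 323 and 529 FPKM. At 2 h all 5 were higher past 1.2-fold, beside 8.07% of all rows. The most abundant of them there were Hbb-bs (112.7 FPKM in saline and 169.6 in cocaine) and Hba-a2 (93.51 and 147.8). Of the choroid plexus list only Ttr had a value in every table, between 0.284 and 6.54 FPKM, with its highest value in cocaine at 7 d and a difference of 2.56 there. Of the same list, Folr1 (0.6683 and 0.2902 FPKM, -0.37) and Kl (0.3762 and 0.5307 FPKM, 0.15) had status OK at 7 d alone. The 5 striatal markers ranged from 65.2 to 80.1 FPKM in sum, and 0 of the olfactory bulb markers had status OK. The part of these marker shifts in the 7 d values of the TIM and TOM genes was not tested.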

How the data were processed

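The deposited tables hold, for 2 groups at each of 3 time points, 1 FPKM per locus and group, which the authors pooled over 2 libraries with Cuffdiff. The submitters' processing notes name CASAVA 1.8.2, Trimmomatic 0.32, TopHat2 2.0.12, Cufflinks 2.2.1 and the build GRCm38, to which the positions were matched, whereas the methods name mm9 and cutadapt. Reads are described as 75 nt in the labels and as longer in the methods. The tables also hold the authors' fold changes, test statistics, p and q values, which were not used. The header marks the first group of each table with C, which the sample labels use for cocaine (CC for control). It was nevertheless read as saline, because the study's supplementary columns are ordered saline, then cocaine. That order could be read only in the supplementary table of the middle time point, and the same order was assumed at the other times. No comparison of directions gene by gene is given here. If the order were opposite, every sign would be inverted.

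Rows with status OK whose symbol begins with Timm or Tomm and a digit were kept and all of them are named. From the other import lists, genes past 1.2-fold were named, at most 4 a list, and from marker lists the leading genes of lists past 1.2-fold. Hspa9, Grpel1, Grpel2, Folr1, Kl, 1810026J23Rik, Sdhd and the rows shared by several genes were added after their values were seen. The members and lists were chosen with earlier results of these data known. Log2 differences used FPKM plus a pseudocount of 1, with no filter on low values. Transcript lengths came from the GENCODE annotation by symbol, matched for 86.1% to 87.5% of named genes, promoters from RefSeq on GRCm38.p6. For the trend with length, genes whose FPKM averaged 1 or more were put into 20 groups. Alternatives were another pseudocount, centring, folds of 1.1 and 1.5, and removal of the length trend. Python 3.11.15, pandas 2.3.3, numpy 2.4.6, scipy 1.17.1 and matplotlib 3.10.9 were used, and the calls were tested on simulated data. The paper gives a range of reads per replicate, but the counts behind each value were not available, so counting error could not be given. Protein sequences were not used here.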

Additional observations from a re-analysis of the deposited data

How the results depend on the processing

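The medians and counts of the TIM and TOM rows depended on the threshold and on transcript length. With 1.1-fold in place of 1.2-fold, 1 row was lower and 2 were higher at 2 h, 3 were lower at 24 h, and 12 were lower and 1 was higher at 7 d, beside 16.9%, 20.9%, 13.8%, 22.8% and 19.5% of all rows. With 1.5-fold, 0 were higher at 24 h and 0 were lower at 7 d, beside 1.37% and 1.9% of all rows. With the length trend taken out, 1 was lower at 7 d and the median was -0.0771, since the trend itself was subtracted. Of 63 single values, 15 then moved by over 0.1 on the log2 scale, and the 7 d differences of Timm10, Timm21, Timm50, Timm8a1, Tomm20 and Tomm40, none of them called, turned positive (0.03, 0.01, 0.03, 0.09, 0.08 and 0.09). A pseudocount of 0.1 moved 1 of 63, the second Timm9 row at 7 d (-0.58), and centring on the median of rows with a mean FPKM of at least 1, which lay between -0.01 and 0.02, moved 0 by that much. The count lower at 7 d was 7 with the pseudocount of 0.1, and 5 with centring, where Tomm7 (-0.26) fell inside the threshold. The shares of all rows under these settings, and with the length trend taken out, are not given here. Counts with the shared rows of Tomm6 and Timm10b added, or without the second Timm9 row, both chosen after seeing the data, stayed within 1.5 times those reported. No paired analysis was possible because the deposited values are pooled over the libraries of a group, and leaving out a library was not run for the same reason.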
